A study of Mus musculus with 6 samples.

Results

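The 9 genes described here are partners of HOXA proteins and transcription factors tied to MLL-fusion leukaemia: Meis1, Pbx2, Pbx3 and Pknox1, the MEF2 genes Mef2a, Mef2c and Mef2d, Mecom and Myb. They were taken by gene symbol from a table of 47643 genes measured by RNA-seq in 6 libraries of sorted leukaemic GMP, here called L-GMP. These are myeloid leukaemia cells with the surface character of the progenitor that makes granulocytes and monocytes. The 3 KO libraries came from C57BL/6 mice with knockout of Prkaa1 and Prkaa2, which encode the catalytic subunits of the energy sensor AMP-activated protein kinase (AMPK). The 3 WT libraries came from C57BL/6 mice labelled wild type. The labels name no oncogene, Cre driver, deleted exon, age, number of mice or batch, and do not say whether a library is 1 mouse or a pool. Adjusted p-values therefore measure the spread between libraries, which may be technical.

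MEIS, PBX and PKNOX proteins are TALE homeodomain factors, which bind DNA beside HOX proteins and help to set where these bind. MEIS1 and PBX3 cooperate with HOXA9 in mouse and human MLL-rearranged leukaemia, where the fusion protein keeps HOXA9 and MEIS1 transcribed. MYB and the MEF2 factors act in progenitor growth and in lineage choice, and EVI1, the product of Mecom, acts in haematopoietic stem cells and in aggressive myeloid leukaemia.

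In KO L-GMP, Meis1 fell 7.94-fold, Pbx3 fell 8.29-fold, Myb fell 1.64-fold and Pknox1 rose 1.61-fold, a call that was lost when libraries were scaled to equal sums. Values are FPKM, which correct the reads of a gene for its length and for a sequencing depth set for each library. Tests used limma on log2(FPKM + 1) for genes averaging 1 FPKM or more, with Benjamini-Hochberg adjustment over all 9108 such genes and a threshold of 0.05. Of the 9 genes, 4 were tested, of which 1 was higher and 3 were lower in KO, while 38.0% of all tested genes were higher and 40.4% were lower. Because 78.4% of tested genes passed in one direction or the other, a pass is the common outcome in this comparison. Every KO value lay below every WT value for 6 of the 9 genes and above for 1, against 30.8% and 24.8% of the 21132 genes above 0 in any library. The other 5 genes had means under 1 FPKM, and for them reads recovered from the FPKM values are given as well.

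**Figure D1:**
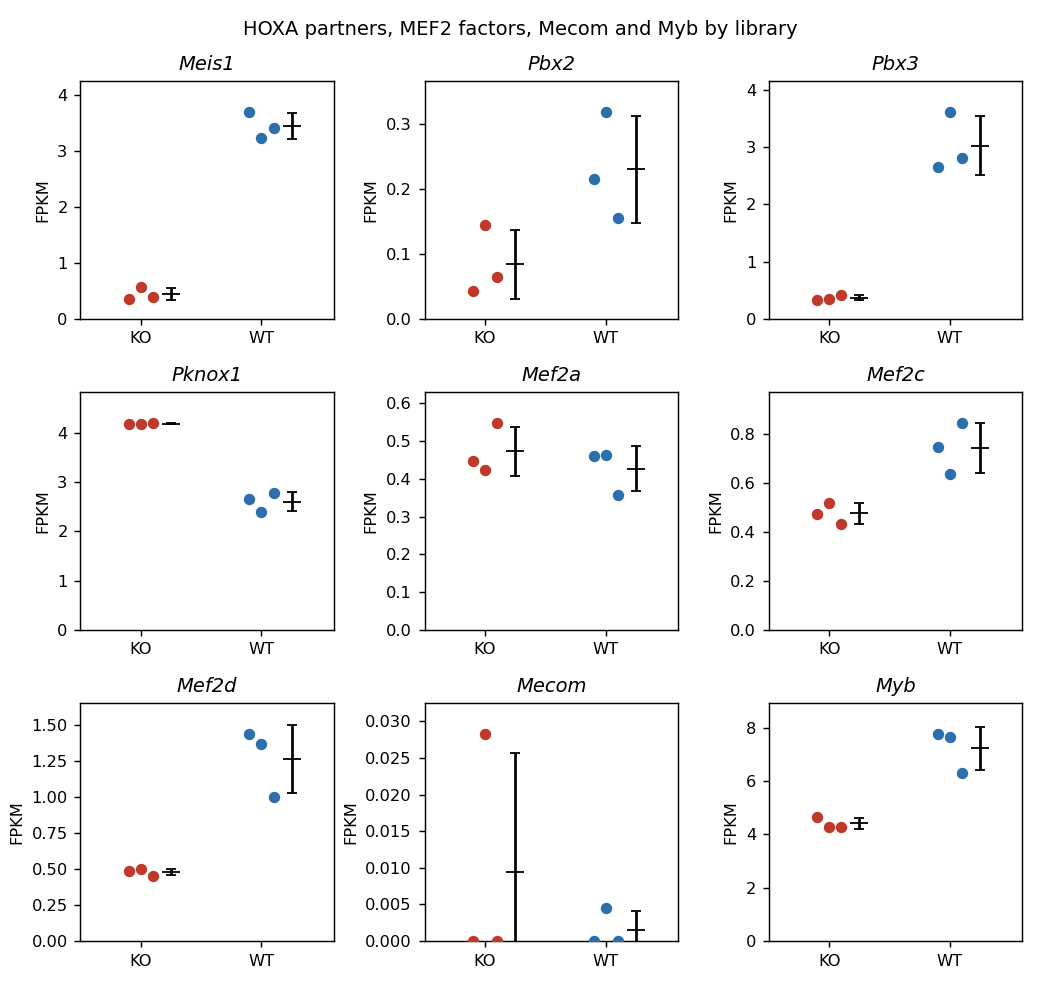
FPKM of the 9 genes in each of the 3 KO and 3 WT libraries (points), with the mean and SD (n = 3) beside each group; each panel has its own axis from 0. The groups do not overlap for 7 of the 9 genes, and overlap for Mef2a and Mecom.

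Prkaa1 was 1.11, 0.735 and 0.548 FPKM in KO, against 2.01, 2.20 and 1.80 FPKM in WT. It fell by 0.75 on the log2 scale (SE 0.13, adjusted p = 0.00112 by limma), and KO kept 39.8% of the WT mean. Prkaa2 had 4 reads in KO and 2 in WT, too few to check the label. Recovered reads ranged over 12368081 to 14020734 in KO and 11388800 to 16413793 in WT. The depth that the FPKM values divide by, inferred from them, was 11400436 to 12937928 reads in KO and 12710036 to 18096883 in WT. It lay below the recovered reads of each KO library and above those of each WT library. Read ratios and folds against 0 use this depth. Summed FPKM was 649611 to 653819 in KO and 463683 to 475654 in WT, so scaling each library to an equal sum moved the median log2 change of all tested genes to -0.45, against -0.02 as deposited. In that scaling 22.7% of tested genes were higher and 59.0% lower in KO. All 10 markers fixed for granulocyte-monocyte progenitors were above 0, at a summed 17064 to 17375 FPKM in KO and 8247 to 8566 FPKM in WT, and Elane, Prtn3 and Ctsg make up most of that sum. The markers were split: of 8 tested, 5 were higher and 3 lower in KO (4 and 4 with equal sums), and the 3 lower, named after their values were seen, were Cd34, Fcgr3 and Ms4a3, with log2 changes of -2.68, -0.94 and -0.23.

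Meis1, which encodes the TALE partner of HOXA9 (ENSMUSG00000020160, mm10 chr11:18879817-19018985, minus strand), was 0.356, 0.558 and 0.389 FPKM in KO, against 3.70, 3.24 and 3.41 FPKM in WT. No KO library came near a WT library. The means were 0.434 ± 0.108 FPKM in KO and 3.45 ± 0.232 FPKM in WT (SD, n = 3 each), 7.94-fold lower in KO. It fell by 1.63 on the log2(FPKM + 1) scale (SE 0.09, adjusted p = 2.12e-06 by limma), a scale that understates changes of low genes. On recovered reads, 168 in KO and 1619 in WT, limma-voom gave a log2 change of -2.98. Of its exonic bases, 18.3% are shared with Gm16140 on the opposite strand and Gm37818 on its own, and no source used here says whether the counting used strand. In bulk libraries, fewer cells with a transcript and less of it per cell cannot be told apart.

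Promoter windows of 300 bases, 250 before to 50 after the start, are shown for 3 genes with different outcomes, taken from RefSeq on GRCm38.p6. Meis1 (lower in KO) is at chr11:19018920-19019219, Myb (lower in KO) at chr10:21160935-21161234 and Mef2a (overlapping groups) at chr7:67372809-67373108, all on the minus strand and read 5′ to 3′. Both strands were searched. Capitals mark the MYB motif AACNG, read here on the opposite strand, in Meis1 and Myb, and the MEF2 motif (CTA and TAG with 4 bases between) in Mef2a.
Meis1: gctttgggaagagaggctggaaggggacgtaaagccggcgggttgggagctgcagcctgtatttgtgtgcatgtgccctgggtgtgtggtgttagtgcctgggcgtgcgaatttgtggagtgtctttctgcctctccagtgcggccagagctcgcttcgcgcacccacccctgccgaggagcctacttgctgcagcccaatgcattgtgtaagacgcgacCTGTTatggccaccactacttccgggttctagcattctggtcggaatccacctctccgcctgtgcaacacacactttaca
Myb: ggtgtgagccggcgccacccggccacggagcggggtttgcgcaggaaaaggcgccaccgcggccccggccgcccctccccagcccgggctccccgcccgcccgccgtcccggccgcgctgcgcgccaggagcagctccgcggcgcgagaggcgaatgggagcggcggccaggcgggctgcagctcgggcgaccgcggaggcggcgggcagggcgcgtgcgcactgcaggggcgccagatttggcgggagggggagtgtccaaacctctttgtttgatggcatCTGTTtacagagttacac
Mef2a: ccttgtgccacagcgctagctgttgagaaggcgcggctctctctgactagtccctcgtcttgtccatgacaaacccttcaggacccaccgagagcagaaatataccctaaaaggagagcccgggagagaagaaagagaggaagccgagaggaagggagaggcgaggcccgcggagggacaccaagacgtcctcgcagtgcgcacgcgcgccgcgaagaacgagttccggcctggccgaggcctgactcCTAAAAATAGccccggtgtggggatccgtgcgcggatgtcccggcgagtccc
The Mef2a window also holds 1 MYB motif, not marked, so that motif is in all 3 windows. The MYB motif stands in 80.3% and the MEF2 motif in 3.69% of all 32851 promoter windows in the table. The HOX-PBX motif TGATNNAT, in 8.85% of windows, and the MEIS and PKNOX motif TGACAG, in 19.2%, were not in these 3 windows. A match is only a description of the letters. Of the 9 genes, 7 had a window in the table, and Pbx3 and Pknox1 were not among them.

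Pbx3 (ENSMUSG00000038718, chr2:34171457-34373142, minus strand) encodes a PBX partner of HOXA9 and MEIS1. Its values were 0.333, 0.345 and 0.418 FPKM in KO, against 2.65, 3.62 and 2.81 FPKM in WT. The KO libraries lay close together and the second WT library was the highest. The means, 0.365 ± 0.0459 FPKM in KO and 3.03 ± 0.518 FPKM in WT (SD, n = 3 each), differed 8.29-fold, and Pbx3 fell by 1.55 on the log2 scale (SE 0.11, adjusted p = 7.41e-06 by limma). Limma-voom on 83 reads in KO and 848 in WT gave a log2 change of -3.02. It shares no exonic base with another gene.

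Pbx2 (ENSMUSG00000034673, chr17:34591266-34597400, plus strand) was near the detection floor in both genotypes. It had 0.0430, 0.145 and 0.0637 FPKM in KO, against 0.216, 0.319 and 0.156 FPKM in WT. The groups did not overlap, by a narrow margin between the highest KO and the lowest WT library. The 11 reads in KO and 39 in WT gave a read ratio of 0.341 (95% exact interval 0.158 to 0.679, counting error only). The exact permutation test gave p = 0.1, two-sided, the smallest that 3 against 3 libraries allow. Without the filter on low values limma gave a log2 change of -0.18 (adjusted p = 0.0556), which did not pass. With no filter it was -0.40 with equal sums (adjusted p = 0.0204), which passed, and -0.09 with quantile normalization (adjusted p = 0.346), so the call depends on the scaling.

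Pknox1 (ENSMUSG00000006705, chr17:31564734-31607693, plus strand), which encodes PREP1, a PBX partner that MEIS proteins compete with, was the gene of the 9 that rose. It had 4.17, 4.19 and 4.19 FPKM in KO, against 2.65, 2.39 and 2.77 FPKM in WT. The KO libraries were nearly equal and all stood above WT. The means were 4.19 ± 0.0103 FPKM in KO and 2.60 ± 0.193 FPKM in WT (SD, n = 3 each), a log2 change of 0.53 (SE 0.07, adjusted p = 0.000284 by limma). Scaled to equal sums, the log2 change was 0.19 and did not pass (adjusted p = 0.0612), and its call depends on the scaling. Within a library no scaling enters the ratio of Meis1 to Pknox1, which was 0.0854, 0.133 and 0.0927 in KO and 1.40, 1.35 and 1.23 in WT. The ratio separated the genotypes in all 6 libraries (exact permutation p = 0.1, two-sided, the smallest possible).

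Among Pbx2, Pbx3 and Pbx4 the leading gene differed between genotypes. Pbx4 was 5.71, 5.42 and 5.33 FPKM in KO, against 0.816, 1.20 and 1.31 FPKM in WT, 4.95-fold higher (log2 change 1.63, SE 0.10, adjusted p = 4.77e-06 by limma). Pbx3 held 6.16% ± 0.903 of the summed FPKM of these 3 genes in KO and 69.4% ± 3.29 in WT, while Pbx4 held 92.4% ± 1.22 in KO and 25.4% ± 4.62 in WT (SD, n = 3 each). Shares of this kind do not change when a library is rescaled. Each of these shares separated the genotypes without overlap, at the smallest possible exact permutation p of 0.1.

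Among the MEIS and PKNOX genes the leading gene differed as well. Meis1 held 8.05% ± 2.16 of their summed FPKM in KO and 55.9% ± 1.96 in WT, and Pknox1 held 77.3% ± 1.78 in KO and 42.1% ± 1.25 in WT (SD, n = 3 each). Pknox2, a paralogue of Pknox1, had 138 reads in KO and 0 in WT, at least 55.6-fold higher against a floor of 3 reads over the group. Meis2 had 3 reads in KO and 0 in WT, so no fold is given. Of the 11 TALE genes listed, 5 were tested: Pbx4, Pknox1 and Tgif1 were higher, and Meis1 and Pbx3 lower, with a median of 0.23 against -0.02 for all tested genes. Tgif1, a TALE repressor, had a log2 change of 0.23 (adjusted p = 0.0182 by limma) that turned to -0.16 with equal sums.

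**Figure D2:**
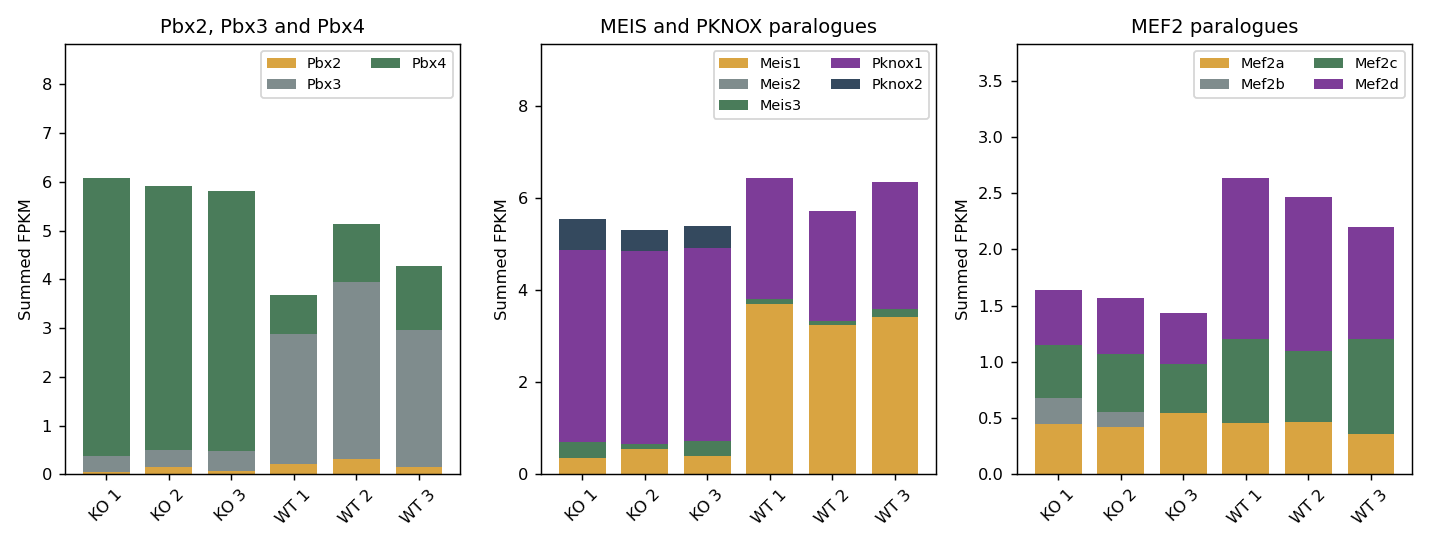
Summed FPKM of Pbx2, Pbx3 and Pbx4, of the MEIS and PKNOX paralogues, and of the MEF2 paralogues in the 3 KO and 3 WT libraries, with each colour a gene. Pbx4 fills 92.4% of the bar in the left panel on average in KO and 25.4% in WT, and Meis1 fills 8.05% of its family's bar in KO and 55.9% in WT.

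Of the MEF2 genes, every KO value of Mef2d and Mef2c lay below every WT value, and those of Mef2a overlapped. Mef2d (ENSMUSG00000001419, chr3:88142372-88172086, plus strand) was 0.483, 0.498 and 0.452 FPKM in KO, against 1.43, 1.37 and 0.995 FPKM in WT. It had 106 reads in KO and 341 in WT. Its mean lay under 1 FPKM, so it was outside the filtered test. Without the filter, a fit in which 22.1% of 21132 genes were higher and 27.3% lower in KO, it fell by 0.61 on the log2 scale (SE 0.10, adjusted p = 0.00304 by limma). Limma-voom on genes with a mean of at least 10 reads, added after the data were seen, gave -1.36 (adjusted p = 6.92e-05), and there 39.0% of 11623 genes were higher and 40.4% lower. Of its exonic bases 8.87% are shared with 1700113A16Rik.

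Mef2c (ENSMUSG00000005583, chr13:83504034-83667080, plus strand), a known MLL-fusion target, was 0.473, 0.519 and 0.433 FPKM in KO, against 0.746, 0.636 and 0.844 FPKM in WT. The highest KO library stayed below the lowest WT library. Reads numbered 276 in KO and 517 in WT. Limma without the filter gave a log2 change of -0.24 (adjusted p = 0.0405), and limma-voom gave -0.60 (adjusted p = 0.00327). With quantile normalization and no filter the adjusted p was 0.0744, so the call depends on the scaling. Because MEF2C is also made in B cells, B cell markers are given beside it: their summed level was 56.2 to 58.3 FPKM in KO and 85.1 to 92.9 FPKM in WT, with 6 of 8 above 0, and Pax5 at 0 in all 6 libraries. Their part in the Mef2c value was not tested.

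Mef2a (ENSMUSG00000030557, chr7:67231163-67372858, minus strand) was 0.447, 0.424 and 0.548 FPKM in KO, against 0.461, 0.463 and 0.357 FPKM in WT. The groups overlapped, and its 259 reads in KO and 283 in WT gave a read ratio of 1.11 (95% exact interval 0.932 to 1.31). Limma-voom gave a log2 change of 0.17 (adjusted p = 0.388), and with equal sums and no filter the value was -0.14 (adjusted p = 0.31). As shares of the MEF2 sum, Mef2d held 30.9% ± 1.21 in KO and 51.7% ± 5.54 in WT, and Mef2a held 30.8% ± 6.39 in KO and 17.5% ± 1.25 in WT (SD, n = 3 each). The Mef2c share was 30.7% ± 2.11 in KO and 30.8% ± 6.68 in WT, and the groups overlapped.

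MEF2 proteins are held inactive by class II histone deacetylases and switched on by calcineurin and p38 kinase. Of 18 regulators listed, 10 were tested: 6 were higher, 1 was lower and 3 did not pass, with a median log2 change of 0.32. With equal sums the counts were 4 higher and 4 lower. Mapk14, the gene of p38 alpha, was 22.1 ± 0.980 FPKM in KO and 6.73 ± 0.361 FPKM in WT (SD, n = 3 each; log2 change 1.58, adjusted p = 2.5e-07 by limma). Ppp3ca, a calcineurin catalytic subunit, and Hdac5, a class II deacetylase, had log2 changes of 0.92 and 0.69. All 3 kept their direction and call with equal sums. Hdac7 and Hdac9, chosen after their values were seen, ran the other way: Hdac7 had 31 reads in KO and 169 in WT, and Hdac9 had 0 in KO and 37 in WT.

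Mecom (ENSMUSG00000027684, chr3:29951296-30548008, minus strand) was at the limit of detection in both genotypes. It was 0, 0.0282 and 0 FPKM in KO, against 0, 0.00445 and 0 FPKM in WT. These values stand for 4 reads in 1 KO library and 1 read in 1 WT library, a read ratio of 4.84 with a 95% exact interval of 0.479 to 238, so a difference was not detectable at this depth. Markers of haematopoietic stem cells, where Mecom is active and is itself among the 8 listed, were also low as a sum. They summed to 1.38 to 2.21 FPKM in KO and 0.663 to 1.09 FPKM in WT, with 6 of 8 above 0. Fgd5 and Hoxb5 were at 0 in all 6 libraries. Every KO value lay above every WT value for 3 markers and below for 2. Among those 3, Hlf, named after its values were seen, had 166 reads in KO and 0 in WT. Prdm16, the paralogue of Mecom, had 94 reads in KO and 3 in WT, a read ratio of 37.9 (95% exact interval 12.6 to 187). Of 8 listed EVI1 family genes and corepressors, 6 were tested, of which 3 were higher and 2 lower, with a median of 0.17. With equal sums they were 1 higher and 4 lower. Ctbp1, an EVI1 corepressor with a log2 change of 0.62, then had 0.22 (adjusted p = 0.121 by limma). Its paralogue Ctbp2, also with a log2 change of 0.62, then had 0.40 and kept its call (adjusted p = 0.00899 by limma).

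Myb (ENSMUSG00000019982, chr10:21124935-21160984, minus strand), which encodes a factor that keeps progenitors dividing, had the highest level of the 9 genes in both genotypes. It was 4.66, 4.29 and 4.27 FPKM in KO, against 7.75, 7.64 and 6.29 FPKM in WT. Every KO library was below every WT library. The means were 4.41 ± 0.221 FPKM in KO and 7.23 ± 0.814 FPKM in WT (SD, n = 3 each), and Myb fell by 0.60 on the log2 scale (SE 0.09, adjusted p = 0.000464 by limma), or by 1.07 with equal sums. Of its exonic bases 6.26% are shared with Gm26577. Its paralogue Mybl2 was 7.88 ± 0.137 FPKM in KO and 12.4 ± 0.424 FPKM in WT, also a fall of 0.60 (adjusted p = 2.08e-05 by limma). Myb held 35.4% ± 0.909 of the MYB family sum in KO and 36.7% ± 3.35 in WT, and these shares overlapped.

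Of 12 MYB family and coactivator genes, 7 were tested, of which 4 were higher and 3 lower in KO, with a median of 0.41 (2 higher and 3 lower with equal sums). Ep300, the gene of the MYB coactivator p300, had a log2 change of 0.64, and the DREAM complex genes Lin37 and Lin52 had 0.68 and -0.60. Of 19 known MYB target genes, 13 were tested, of which 6 were higher and 7 lower, with a median of -0.38 (5 higher, 8 lower and a median of -0.85 with equal sums). Elane, the gene of neutrophil elastase, was 7923 ± 106 FPKM in KO and 1758 ± 54.7 FPKM in WT (SD, n = 3 each), whereas Cd34, a progenitor surface antigen, was 3.51 ± 0.157 FPKM in KO and 27.8 ± 0.840 FPKM in WT. The listed MYB targets moved in both directions while Myb itself was lower.

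**Figure D3:**
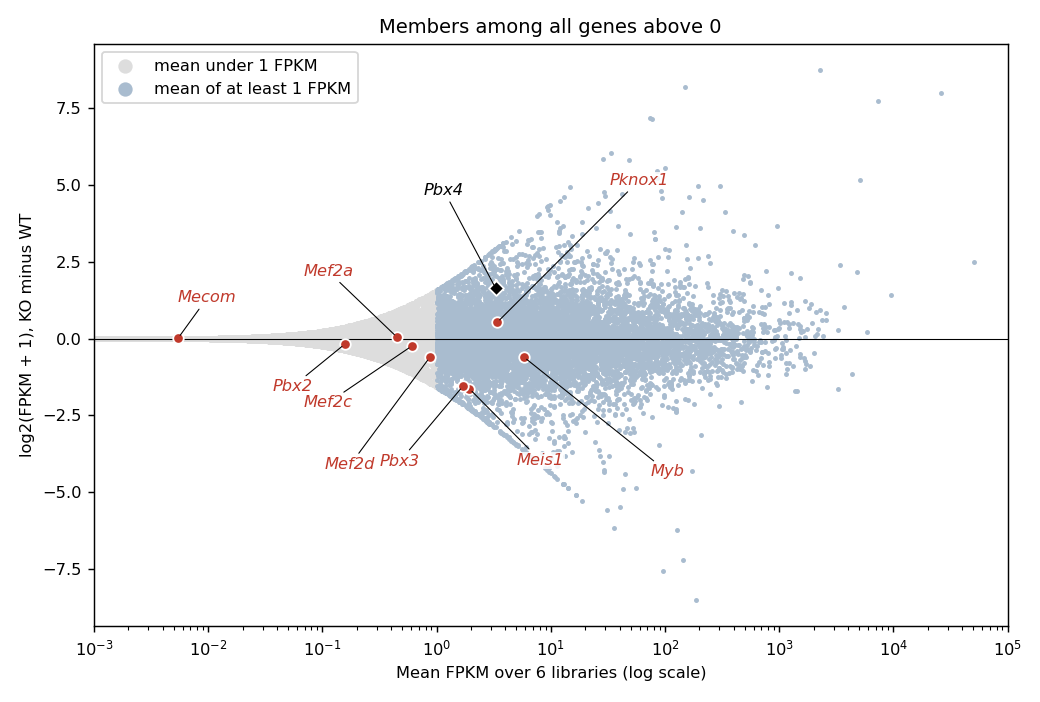
Difference in mean log2(FPKM + 1), KO minus WT, against mean FPKM over the 6 libraries on a log axis, for all genes above 0; the 9 genes are red and Pbx4 is a black diamond. Meis1 (-1.63) and Pbx3 (-1.55) lie at the low edge of the cloud for their level, which log2(FPKM + 1) narrows below 1 FPKM.

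**Figure D4:**
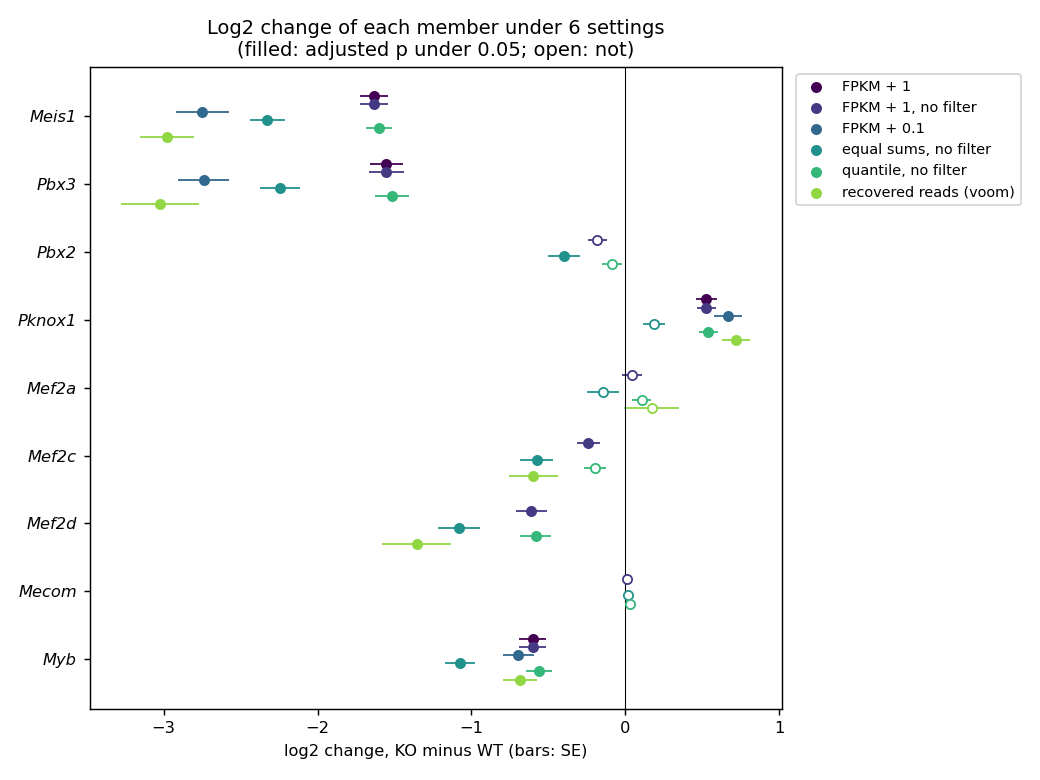
Log2 change, KO minus WT, of each of the 9 genes with its SE under 6 settings; filled points have an adjusted p under 0.05. Meis1, Pbx3 and Myb stay negative and filled throughout, while the Pknox1 point is open with equal sums (0.19).

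Ordered by mean FPKM in KO, Myb came first, then Pknox1, and both stood clear of Mef2d, Mef2c, Mef2a, Meis1 and Pbx3, whose neighbouring ranges overlapped. Pbx2 and Mecom were last. In WT, Myb again came first, followed by Meis1, Pbx3 and Pknox1, whose neighbouring ranges overlapped, then Mef2d, Mef2c, Mef2a, Pbx2 and Mecom without overlap between neighbours. Meis1 stood above 36.8% of the genes detected in KO and above 67.7% of those detected in WT. Over the 6 libraries, the log2(FPKM + 1) of Pik3r2, Med22 and Acsl5 correlated most with that of Meis1 (Pearson r of 0.9998 for Pik3r2), and that of Usp21, Gdpgp1 and Hsd11b1 with that of Pknox1 (r of 0.9993 for Usp21). As a description of 6 points that share the split into 2 genotypes, 1068 genes reached a correlation of 0.99 with Meis1 and 245 with Pknox1.

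The HOXA genes with which these factors act were lower as well. Of 11 HOXA genes, 4 were tested and all 4 were lower, with a median log2 change of -3.61, and Hoxa9 was 0.121 ± 0.0622 FPKM in KO and 12.0 ± 0.253 FPKM in WT (SD, n = 3 each). Of 23 HOXA9 and MEIS1 target genes, 12 were tested, of which 7 were higher and 4 lower, with a median of 0.44 (6 higher, 5 lower and a median of 0.13 with equal sums). Id2, an inhibitor of E proteins, had a log2 change of 3.34. Gfi1b, a transcriptional repressor that acts in the erythroid and megakaryocyte lineages, had 2.99, and Cd34 had -2.68. Flt3, a receptor of progenitors chosen after its values were seen, had 0 reads in KO and 406 in WT, at least 112-fold lower. Of 13 MEF2C and MEF2D target genes, 9 were tested, of which 6 were higher and 3 lower. The 3 lower, named after their values were seen, were Cdk6, Myc and Lyl1, with log2 changes of -1.51, -0.93 and -0.22. Over all 13 genes, every KO value lay above every WT value for 6 and below for 7. These compare with 24.8% and 30.8% of all genes above 0. Egr1 and Irf8 had log2(FPKM + 1) changes of 3.25 and 2.10. Klf4 had 292 reads in KO and 0 in WT, at least 118-fold higher.

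Of the 19 genes of the MLL-fusion target programme, 13 were tested. Of these, 11 were lower, 1 was higher and 1 did not pass, with a median of -1.63, or -2.33 with equal sums. Among the lower genes were Hoxa7, Hoxa5 and Lmo2, with log2 changes of -5.57, -3.69 and -2.13. Meis1, Pbx3 and Myb are counted in it too, and the list was chosen with earlier results of these data known.

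**Figure D5:**
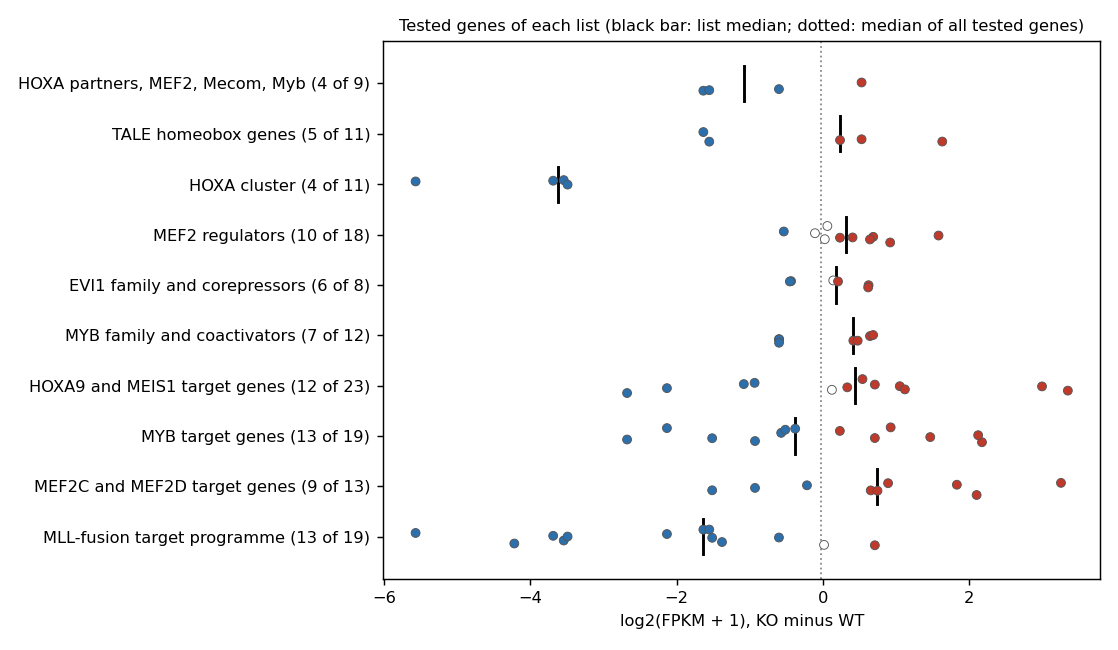
Log2(FPKM + 1) difference, KO minus WT, of each tested gene in 10 lists; red points are higher and blue points lower at an adjusted p under 0.05, open points did not pass, the black bar is the list median and the dotted line the median of all tested genes (-0.02). The MLL-fusion target programme has its median at -1.63 and the MEF2C and MEF2D targets at 0.74.

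Markers of more mature and of other blood cells moved with genotype. Neutrophil markers, 8 of 8 above 0, summed to 71422 to 72817 FPKM in KO and 317 to 331 FPKM in WT. Markers of eosinophils, basophils and mast cells, 9 of 10 above 0 and Ear1 at 0, summed to 562 to 592 FPKM in KO and 30.1 to 36.2 FPKM in WT. Erythroid markers, 8 of 8 above 0, summed to 59.9 to 65.0 FPKM in KO and 12.3 to 15.1 FPKM in WT. Megakaryocyte markers summed to 12.9 to 14.1 FPKM in KO and 4.99 to 5.89 FPKM in WT, with 3 of 7 above 0 and Gp1bb, Gp9 and Ppbp at 0. T cell markers summed to 0.709 to 1.23 FPKM in KO and 2.12 to 2.26 FPKM in WT, with 3 of 8 above 0 and Cd3e, Cd3g, Cd8a, Trbc1 and Trbc2 at 0. Most of that sum was Lck, at 0.588 ± 0.124 FPKM in KO and 2.16 ± 0.0332 FPKM in WT (SD, n = 3 each), while Cd3d ran the other way with 17 reads in KO and 1 in WT (both named after their values were seen). Endothelial and stromal markers summed to 0 to 0.122 FPKM in KO and 2.12 to 2.83 FPKM in WT, with 5 of 8 above 0 and Cdh5, Emcn and Lepr at 0. Of these 8 markers, 1 was tested and was lower in KO (log2 change -1.75). That gene alone averaged 1 FPKM or more in WT and made up most of the WT sum. The part of these cells in the values of Meis1, Pbx3, Pbx4, Pknox1, Myb and the other genes was not tested.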

How the data were processed

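RNA from sorted L-GMP was made into cDNA by Smart-seq2 and into libraries with Nextera XT, per the labels' protocols. The submitters' processing notes name CASAVA, bcl2fastq, STAR 2.5.3a, DESeq2 1.18.1 and the mm10 build. The authors deposited FPKM values per gene. Which program counted the reads, on which annotation and strand setting, is not given in the sources used here.

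Genes averaging 1 FPKM or more were fitted on log2(FPKM + 1) by genotype in limma 3.58.1 (R 4.3.3), with trended moderation, two-sided tests and a Benjamini-Hochberg threshold of 0.05. The method was tested on simulated data in which few genes changed, as many up as down. That simulation did not copy the large share of genes called here or the difference in summed FPKM. It therefore cannot decide which scaling is right. Whole reads were recovered from FPKM and gene length within 0.001 of a whole number for 96.6% of the genes above 0. They were whole at the annotated exonic length for 16481 genes and at a searched length for 3922, including Myb and Pknox1, where they are the smallest reads the values allow. No read number was found for 729. On these reads, limma-voom with TMM scaling was an alternative, chosen after seeing the data where it used a mean of at least 10 reads. Read ratios carry 95% exact intervals and folds against 0 use a floor of 3 reads over the group. Both cover counting error only, since PCR copies of a molecule cannot be recognised. Other alternatives changed the pseudocount, filter, scaling and trend, used a replicate block or left out each library.

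Positions and exon overlaps came from GENCODE M21 on mm10, which held 99.1% of the IDs. The text names the 9 genes, from each list the 3 tested genes outside the 9 with the largest log2 change past the threshold, paralogues and the genes most like Meis1 and Pknox1, and says where a gene was chosen otherwise. Some genes that this rule names are not reported here. The genes and lists were chosen with earlier results of these data known. Tables used pandas 2.3.3 and numpy 2.4.6 under Python 3.11.15, exact tests scipy 1.17.1, and figures matplotlib 3.10.9.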

Additional observations from a re-analysis of the deposited data

How the results depend on the processing

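Of the 29 named genes that were tested, values under the alternatives kept direction and side of the threshold in 474 cases, lost the call in 6 and reversed in 2. Both reversals were Tgif1 with equal sums, at -0.16 with or without the filter, and the scaling itself moves the median of all genes. Meis1 ranged over -2.98 to -1.60 on the log2 scale (highest adjusted p = 7.13e-05 by limma), Pbx3 over -3.02 to -1.45, Myb over -1.07 to -0.56 and Pknox1 over 0.19 to 0.72, and of these 4 only Pknox1 lost its call, with equal sums (highest adjusted p = 0.0724). Ctbp1 lost its call there too, and Tgif1 lost its call without KO library 1 (0.20) and without WT library 2 (0.21). Over all tested genes 3464 were higher and 3676 lower. With a minimum mean of 5 FPKM, which tests fewer genes, they were 2072 and 2383, and of the 9 genes 0 were higher and 1 (Myb) lower. Without the filter 5769 genes and 5 of the 9 were lower. With equal sums 2069 genes were higher, 5376 were lower and 0 of the 9 were higher. With no filter and equal sums, added after seeing the data, 7887 genes and 6 of the 9 were lower and 0 of the 9 higher. Limma-voom with a mean of at least 10 reads, also added, held 7 of the 9, of which 5 were lower and 1 was higher. In that fit 40.4% of 11623 genes were lower and 39.0% higher. Leaving out each library in turn gave 3305 to 3380 higher and 3507 to 3603 lower genes, and 1 higher and 3 lower of the 9 each time. Same-numbered libraries did not deviate together from their group means (correlations -0.0166 to 0.00946). The labels do not say whether the numbers pair the libraries, and these correlations cannot decide it. A replicate block gave 3420 higher and 3620 lower genes. Depth limits Mecom and Pbx2, with 5 and 50 reads over the 6 libraries.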
